A study of Mus musculus with 157 samples.

Results

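The response of mouse macrophages labelled Ampka1KO to monosodium urate crystals (MSUc) was measured in 6 of the 157 samples of the series, 3 exposed to crystals and 3 to phosphate-buffered saline (PBS). Its members are all 24940 genes of the deposited table, of which 12834 were tested, those that reached 1 TPM in at least 3 of the 12 libraries that the table holds. TPM is a level per transcript length and library total, and ranges joined by a dash run from the lowest to the highest library of a group. The other 6 libraries are the congenic wild-type cells (Ampka1WT) given the same treatments, 3 with MSUc and 3 with PBS. All 12 were bone marrow macrophages from mice of 7 to 8 weeks, kept in RPMI with 10% serum and 5 ng/mL of the growth factor M-CSF, and MSUc was given at 250 ug/mL. Neither the time of exposure, nor which part of the gene was deleted and in which cells of the mouse, nor whether replicates came from separate mice is given in the labels. The p-values therefore measure the spread between these samples, which may be technical.

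AMPK, the AMP-activated protein kinase, is a trimer of a catalytic alpha subunit and regulatory beta and gamma subunits that senses a fall in cellular energy. It restrains anabolic metabolism and mTORC1, starts autophagy, and acts upstream of the lysosomal transcription factors TFEB and TFE3. Monosodium urate crystals, the cause of gout, are taken up by macrophages into phagolysosomes, which they damage, and they activate the NLRP3 inflammasome after a priming signal. Comparing crystals with PBS inside the knockout addresses which parts of the crystal response occur in cells labelled as lacking the alpha1 subunit.

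The transcript of the targeted gene did not set the genotypes apart. Prkaa1 (NM_001013367, chr15:5143861-5181899 of mm10), which encodes alpha1, stood at 27.3, 24.3 and 26.5 TPM in the 3 PBS libraries labelled Ampka1KO and at 28.7, 31 and 26.5 with MSUc. In Ampka1WT it stood at 24.9, 25.4 and 23.1 TPM in PBS and at 21.2, 23.3 and 21.5 with MSUc. The PBS groups overlapped, with a log2 difference of 0.08 ± 0.08 (SE; limma adjusted p = 0.43). With MSUc every library labelled Ampka1KO lay above every wild-type one (0.37 ± 0.08, adjusted p = 0.0017), a difference that turned to -0.13 (adjusted p = 0.21) when libraries were scaled by the median of gene ratios. Reads outside a deleted part would still be counted for this gene, so this level does not check the label, and the groups are called by their labels throughout. Prkaa2, which encodes the alternative catalytic subunit alpha2, was too low to be tested but stood at 0.355–0.497 TPM in PBS libraries labelled Ampka1KO and 0.358–0.946 with MSUc, against at most 0.119 TPM in any wild-type library.

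The libraries labelled Ampka1KO also carried marker transcripts of other cell types. The macrophage markers Adgre1, Csf1r, Cd68, Itgam, Mertk, Fcgr1, Lyz2 and Spi1 were all present in every library, and the 24 macrophage identity genes summed to 32024 to 33836 TPM in PBS and 10571 to 12837 with MSUc, against 47012 to 52604 and 36359 to 42750 in Ampka1WT. The 9 stromal markers, genes of fibroblasts and smooth muscle such as Col1a1 and Acta2, summed to 1760 to 2555 TPM in PBS and 4778 to 5616 with MSUc, against 115 to 212 and 108 to 307 in Ampka1WT. The ratio of the stromal to the macrophage sum was thus 0.0520 to 0.0798 in PBS and 0.372 to 0.529 with MSUc in the libraries labelled Ampka1KO, and at most 0.00846 in wild-type libraries. In these bulk samples fewer cells of a type and less RNA per cell cannot be told apart, and the part of these markers in the results below was not tested. Neutrophil markers summed to 156 to 238 TPM in PBS and 348 to 411 with MSUc, against 30.8 to 42.7 and 18.6 to 74.3 in Ampka1WT. In libraries labelled Ampka1KO nearly all came from S100a8, S100a9 and Ngp, while Ly6g, which defines neutrophils, was at 0 in 4 of the 6 and reached at most 0.493 TPM. Mast cell and basophil markers summed to 2.64 to 6.53 and 17.1 to 22.2 TPM, against 0.687 to 1.42 and 1.23 to 3.48. Dendritic cell markers were instead lower, at 6.17 to 10.5 and 5.67 to 7.35 TPM, against 28.2 to 29.9 and 26.3 to 58.9. Depth was 10120378 to 15179126 recovered reads in the PBS libraries and 5764103 to 9497747 in the MSUc libraries labelled Ampka1KO, and 9209888 to 18399527 in Ampka1WT. PBS replicate 1 stood apart from the other PBS libraries with higher inflammatory transcripts (18 of 24 cytokine genes above the mean of the other 2, and 7 by over 2-fold), and MSUc replicate 3 was low for several falling genes, so counts are also given without them where that matters.

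**Figure D1:**
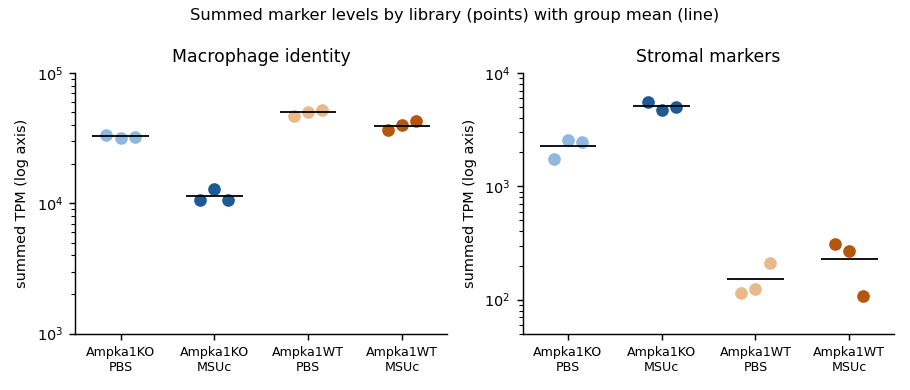
Summed TPM of 24 macrophage identity genes (left) and 9 stromal markers (right), on log axes, in the 12 libraries; points are libraries and lines are group means. In libraries labelled Ampka1KO the macrophage sum was lower and the stromal sum higher with MSUc than in PBS, with no overlap, and the stromal sum of each exceeded that of every Ampka1WT library.

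With MSUc, 3806 of the 12834 genes tested rose in the libraries labelled Ampka1KO (29.7%) and 3702 fell (28.8%), together 58.5%, at a Benjamini-Hochberg adjusted p under 0.05 by limma on log2(TPM + 1). Of these, 1048 rose and 1081 fell by at least 2-fold, and the median change over all genes tested was 0.00 on the log2 scale. MSUc libraries lay wholly above PBS libraries for 30.5% of genes and wholly below for 29%. Without PBS replicate 1 and MSUc replicate 3 together, 3214 rose and 3393 fell. Genes nearly silent in wild-type macrophages went mostly one way: of 805 genes under 1 TPM in all 6 Ampka1WT libraries, 565 rose (70.2%) and 15 fell. All 805 could pass the filter only through libraries labelled Ampka1KO. Of them, 101 passed only through the MSUc libraries, and 95 of these rose. The filter thus favoured rises in this class, and its share of rises is in part set by that selection. Of 827 genes at a mean of 100 TPM or more in wild-type libraries, 190 rose (23%) and 418 fell (50.5%). Of the genes named below, Il1b, Mcpt8, Hbb-bs, Ctsa, Atp6v0c, Prkag2, Lamtor1, Deptor, Ppp1r15a, Hk3, Fdft1, Fosl1, Bhlhe40, Aff4 and 3 of complex I overlap another gene in the table, so their reads are uncertain. The median change also followed transcript length, from -0.21 in the shortest of 4 length classes (up to 1679 bases) to 0.15 in the longest (4262 bases or more).

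Of the 12 largest rises 8 were in genes of secreted factors or ligands. The 12, among genes reaching a mean of 5 TPM and overlapping no other gene, were Serpinb2, Il6, Il11, Cxcl5, Cxcl1, Nr4a3, Lif, Ptgs2, Tnfsf11, Ereg, Akr1c18 and Gem. Serpinb2 (NM_001174170, chr1:107511423-107525600), which encodes an inhibitor of urokinase-type plasminogen activator, went from 29.7, 32.1 and 38.4 TPM in PBS to 496, 448 and 552 with MSUc, a log2 change of 3.86 ± 0.30 (SE, adjusted p = 1.4e-06). Ptgs2, the inducible cyclooxygenase of prostaglandin synthesis, went from 126, 106 and 116 TPM to 1004, 1325 and 1267, which is 3.35 ± 0.17 (adjusted p = 1.3e-07). Neither gene's MSUc libraries came near the PBS ones.

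Among these 12 were 3 cytokines that signal through the gp130 receptor. Il6 was at 0.84, 0.641 and 0.299 TPM in PBS and 23.9, 17.1 and 23.7 with MSUc (3.82 ± 0.37, adjusted p = 7.4e-06). Il11, a cytokine best known from stromal cells, was at 3.51, 3.61 and 4.43 TPM in PBS and 66.4, 51.6 and 49 with MSUc (3.54 ± 0.30, adjusted p = 2.8e-06). Lif was at 12.7, 13.4 and 12.5 TPM in PBS and 161, 138 and 137 with MSUc (3.39 ± 0.27, adjusted p = 2e-06). In wild-type libraries Il6 reached 2.67–12.8 TPM with MSUc, Il11 1.78–7.05 and Lif 8.87–24.8, each below every MSUc library labelled Ampka1KO. For Il6 and Lif the difference in response between genotypes did not pass the test (log2 0.89 ± 0.53, adjusted p = 0.18, and 0.13 ± 0.39, adjusted p = 0.79). For Il11 the sign of that difference depended on processing. It turned to -0.84 when 0.1 in place of 1 was added to TPM, and to -2.56 by voom on recovered reads.

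The remaining large rises paired chemoattractants with growth factor ligands. The neutrophil chemoattractant genes Cxcl5 and Cxcl1 went from 1.15–3.56 to 23.8–44.4 TPM and from 2.41–8.08 to 40.9–58.1 TPM. Tnfsf11, which encodes the osteoclast factor RANKL and is known from stromal and lymphoid cells, went from 2.32, 3.27 and 4.77 to 41.4, 38.2 and 48.9 TPM (3.33 ± 0.33). Ereg, a ligand of the EGF receptor, went from 2.77, 2.58 and 3.78 to 42.4, 41.9 and 33.4 TPM (3.32 ± 0.23), and Akr1c18, a hydroxysteroid dehydrogenase, from 1.41, 1.88 and 2.14 to 31.2, 18.9 and 31.8 TPM (3.30 ± 0.22). In Ampka1WT with MSUc the highest values were 5.19 TPM for Tnfsf11, 2.66 for Ereg and 0.837 for Akr1c18. The immediate early nuclear receptor gene Nr4a3 and Gem, which encodes a small GTPase, were instead higher in wild-type MSUc libraries (46.9–66.2 and 41.2–51.8 TPM) than in those labelled Ampka1KO (29.9–40.1 and 21.8–22.9 TPM). For both, PBS replicate 1 labelled Ampka1KO was above the other 2, and without it their log2 changes were 3.98 and 3.67 in place of 3.42 and 3.12. The stromal marker sum was higher in the same MSUc libraries, and its part in their rise was not tested.

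**Figure D2:**
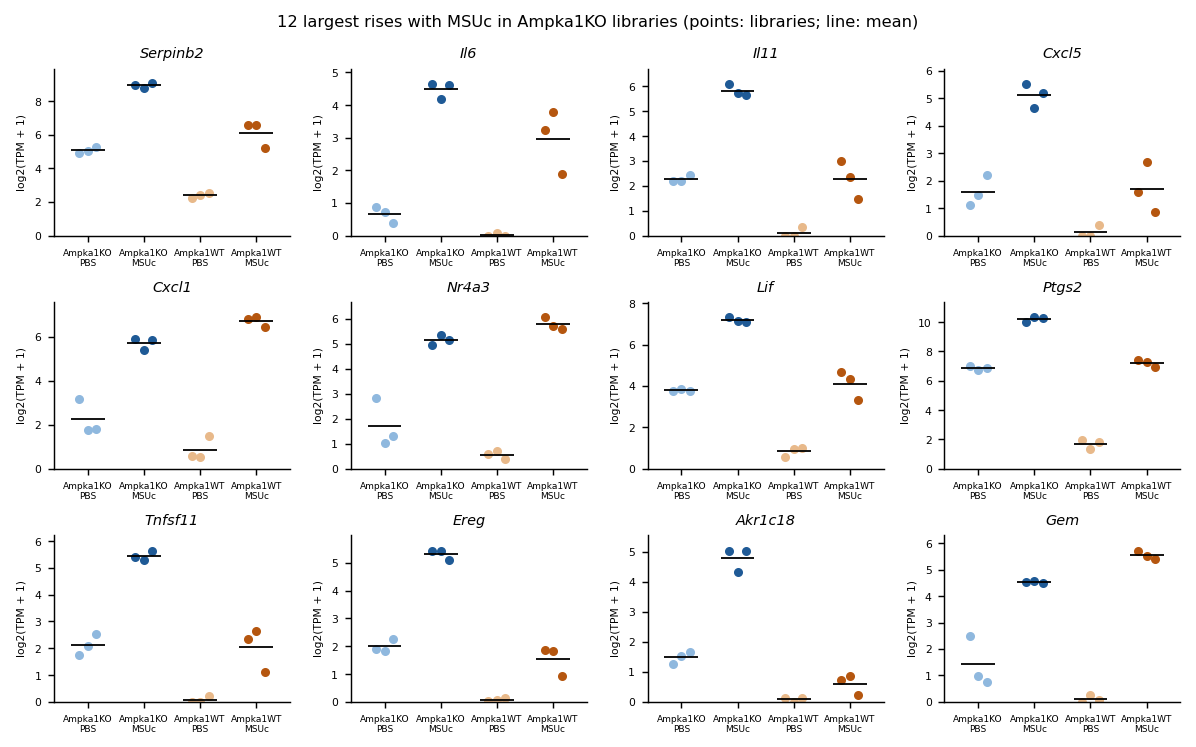
Levels as log2(TPM + 1) of the 12 genes with the largest rises with MSUc in libraries labelled Ampka1KO, in each of the 12 libraries (points) with group means (lines). For all 12 the dark blue MSUc points lie above the light blue PBS points, and for all but Cxcl1, Nr4a3 and Gem they also lie above the MSUc points of Ampka1WT.

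Promoter sequences are shown for Il6 and Il11 because both rose together and hold the binding motif of AP-1, the dimer of FOS and JUN family proteins. The motif searched was TGACTCA on both strands (TGAGTCA on the other) in the 250 bases before the start of the counted transcript, from RefSeq on GRCm38.p6. Capitals mark the motif. Of the 8 largest rises with a promoter in the table these 2 held it (25%), as did 4.11% of all 17632 promoters. The Il11 window is chr7:4778206-4778266 on the minus strand and the Il6 window chr5:30012864-30012898 on the plus strand.
Il11: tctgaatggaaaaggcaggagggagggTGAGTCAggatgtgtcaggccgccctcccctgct
Il6: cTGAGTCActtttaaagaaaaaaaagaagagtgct
The match begins 98 bases before the start in Il11 and 249 bases before it in Il6. These letters describe the windows only.

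Cytokines, chemokines and related secreted mediators rose as a group. Of 24 tested, 17 rose, 3 fell and 4 did not pass, with a median of 1.62, against 29.7% and 28.8% of all genes and a median of 0.00. In Ampka1WT 22 rose and 1 fell (19.7% and 43.9% of all genes), with a median of 3.46. Csf1, which encodes M-CSF itself, went from 375, 451 and 432 TPM in PBS to 1408, 1210 and 1260 with MSUc (1.62 ± 0.11, adjusted p = 7.8e-07), and was only 17.7–24.3 TPM in wild-type PBS libraries. The monocyte chemoattractant genes Ccl2 and Ccl7 went from 28–40.1 to 179–287 TPM (2.69 ± 0.22) and from 25–40.9 to 233–278 TPM (2.95 ± 0.24). Tnf went from 15.4, 9.49 and 8.37 to 36.8, 35.2 and 32.6 TPM (1.61 ± 0.23), where wild-type libraries went from 2.03–3.17 to 76–130 (4.91 ± 0.23). Ccl3, a macrophage chemokine gene, was at 238, 37.3 and 28.4 TPM in PBS, high in replicate 1, and at 503, 584 and 582 with MSUc; its log2 change was 3.11, and 4.05 without that replicate. Il1b, which encodes the precursor of interleukin-1 beta and overlaps another gene of the table, stood at 9.65, 7.27 and 12.2 TPM in PBS and 10.9, 11 and 9.46 with MSUc, groups that overlapped (0.12 ± 0.25, adjusted p = 0.71), while in Ampka1WT it rose from 12.4, 24.2 and 19.3 to 38.3, 55.9 and 31 TPM (adjusted p = 0.002). The genes that fell were Cxcl16 (-1.04 ± 0.11), Tnfsf9 (-0.90 ± 0.23) and Ccl9 (-0.56 ± 0.13).

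Immediate early transcription factor genes, the first wave of an activation response, also rose: 27 of 34 rose and 2 fell, with a median of 1.10. Maff, Mafk and Myc had the smallest p-values. Myc went from 18, 22 and 21.6 to 66.3, 55.4 and 58.8 TPM (1.51 ± 0.13) and Maff, a small MAF factor, from 19.2, 13.8 and 15.4 to 62.8, 54 and 60.3 (1.82 ± 0.16). The FOS and JUN family, whose products make up AP-1, divided: Fosb (2.69 ± 0.40), Fosl1 (2.04 ± 0.23), Junb (1.01 ± 0.16) and Fosl2 (0.65 ± 0.08) rose, and Fos, Jun and Jund (-0.06 ± 0.15, adjusted p = 0.76) did not. Fos fell from 106, 101 and 106 TPM in PBS to 68.5, 59.1 and 73.7 with MSUc (-0.63 ± 0.08, adjusted p = 5.7e-05), and Jun stood at 70.2, 64.1 and 60 TPM in PBS and 75.2, 63.8 and 63.9 with MSUc, which overlapped (0.06 ± 0.09, adjusted p = 0.6). In Ampka1WT, Fos rose from 70.1–77.5 to 283–309 TPM and Jun from 16.1–17.7 to 186–217. In PBS, Jun was already higher in the libraries labelled Ampka1KO than in any wild-type PBS library. Of 20 genes of NF-kappaB subunits and their inhibitors 7 rose and 4 fell, against 29.7% and 28.8% of all genes, with a median of -0.10. Tnfaip3, which encodes the inhibitor A20, rose from 24.6, 11.1 and 11.3 to 56.5, 54.1 and 55.8 TPM (1.85 ± 0.23, and 2.20 without PBS replicate 1), Nfkb1 rose from 44.3–46.1 to 66.7–76.4 TPM and Nfkbiz from 9.85–12.2 to 31.3–36.1.

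Genes that define macrophages fell nearly without exception. Of the 24 macrophage identity genes 23 fell and 1 rose, with a median of -1.68, and the same counts held without PBS replicate 1 and MSUc replicate 3. Of all genes tested 28.8% fell and 29.7% rose. In Ampka1WT 17 of the 24 fell and 3 rose, with a median of -0.51 (43.9% and 19.7% of all genes). Trem2, a lipid receptor, fell from 366, 382 and 340 to 113, 95.5 and 88 TPM (-1.87 ± 0.09) and Maf from 67.5, 65.3 and 71.3 to 23.6, 27.7 and 26.3 (-1.36 ± 0.07). The gene that rose was Axl, a receptor of apoptotic cell ligands that stromal cells express as well, at 123, 137 and 128 TPM in PBS and 299, 275 and 295 with MSUc (1.15 ± 0.09). Beside this, 7 of 8 tested stromal markers rose, with a median of 1.24; 4 rose without PBS replicate 1 and 3 without that library and MSUc replicate 3. Dcn, a matrix proteoglycan gene, went from 2.97, 4.12 and 3.91 to 21.9, 25.7 and 15.4 TPM (2.22 ± 0.30, adjusted p = 7.7e-05), Cxcl12 from 27.5, 36.8 and 33.3 to 80.3, 75.1 and 77.1 (1.24 ± 0.21) and Acta2, smooth muscle actin, from 870, 1141 and 1009 to 2482, 2281 and 2482 (1.27 ± 0.28).

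Other cell type markers were few. Both tested mast cell and basophil genes rose, Mcpt8 from 0.819, 2.3 and 4.35 to 11.9, 14.9 and 19 TPM and Gata2 from 1.77, 2.33 and 1.96 to 4.97, 3.42 and 3.04; without PBS replicate 1 or without MSUc replicate 1 only 1 of them did. Of 9 neutrophil genes S100a8 (49.6–72.4 to 108–156 TPM) and Camp (1.69–3.9 to 4.57–7.41 TPM) rose and Csf3r fell (11.8–13.3 to 3.39–4.7 TPM), with 0 rises once PBS replicate 2, PBS replicate 3 or MSUc replicate 3 was left out, and 1 without any other single library labelled Ampka1KO. Of 4 dendritic cell genes 1, Zbtb46, rose, and it did not pass without PBS replicate 1 (adjusted p = 0.066), MSUc replicate 3 (adjusted p = 0.064) or both (adjusted p = 0.18), while Xcr1 rose without the first (adjusted p = 0.021) and without both (adjusted p = 0.025). The single T cell gene tested, Cd4, fell from 2.61–5.49 to 1.01–1.61 TPM, but not without PBS replicate 1 and MSUc replicate 3 together. Cd79b of B cells (0.779–1.93 and 0.211–1.29 TPM) and Hbb-bs of red cells (0.356–1.43 and 0–2.04 TPM) did not pass, except that without MSUc replicate 2 the first fell and the second rose.

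Receptors through which macrophages meet crystals and microbes fell. Of 12 C-type lectin and Fc receptor genes 9 fell and 0 rose, with a median of -1.15; by limma 0 rose at an unadjusted p under 0.05 as well, and 1 did by voom on recovered reads and without PBS replicate 1 or MSUc replicate 1. Fcgr2b, the inhibitory Fc receptor, went from 423, 470 and 477 to 124, 134 and 118 TPM (-1.85 ± 0.08). Fcer1g, the shared signalling chain, went from 1510, 1256 and 1142 to 385, 425 and 357 TPM (-1.74 ± 0.10). Syk, the kinase downstream of these receptors, fell from 101, 95 and 102 to 48.3, 48.1 and 46.6 (-1.04 ± 0.06) but rose in Ampka1WT from 115–125 to 191–200 TPM. Of 23 Toll-like receptor pathway genes 19 fell and 1 rose, with a median of -0.92. Of all genes tested 28.8% fell and 29.7% rose. In Ampka1WT 14 of these 23 fell and 6 rose, with a median of -0.54. Of the 12 C-type lectin and Fc receptor genes 6 fell there and 5 rose (43.9% and 19.7% of all genes). Cd14, the lipopolysaccharide co-receptor, went from 2607, 2675 and 2767 TPM to 1118, 999 and 1034 (-1.35 ± 0.08, adjusted p = 2.9e-07), the nucleic acid sensor gene Tlr8 from 91.9, 76.2 and 84.5 to 13.5, 19.9 and 10.4 (-2.49 ± 0.19), and Unc93b1, the chaperone of endosomal Toll-like receptors, from 278, 285 and 275 to 80.9, 82.5 and 63.9 (-1.88 ± 0.10).

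Inflammasome genes fell too. Of 17, 13 fell, Casp4 alone rose and 3 did not pass, with a median of -0.70, and 2 rose without MSUc replicate 1. Of all genes tested 28.8% fell and 29.7% rose. In Ampka1WT 8 of the 17 fell and 5 rose, with a median of -0.23 (43.9% and 19.7% of all genes). Nlrp3, the sensor that urate crystals engage, was at 37.1, 31.4 and 36.6 TPM in PBS and 22.2, 23.9 and 23.5 with MSUc (-0.57 ± 0.08, adjusted p = 7.7e-05), while in Ampka1WT it rose from 18.6, 19.9 and 19.8 to 124, 130 and 125 TPM (2.64 ± 0.08). In PBS it was higher in all 3 libraries labelled Ampka1KO than in any of the wild type. Nlrc4, the sensor of bacterial flagellin and secretion systems, fell from 12.3, 11.6 and 11.5 to 2.99, 3.01 and 3.44 TPM (-1.63 ± 0.10) and its partner Naip2 from 47.3, 42.1 and 46.6 to 14.4, 18.6 and 18.3 (-1.36 ± 0.10). The NAIP genes are close copies of each other, so how reads were divided among them is uncertain. Ninj1, which ruptures the plasma membrane in lytic death, fell from 334, 313 and 307 to 150, 119 and 127 TPM (-1.27 ± 0.10), whereas it rose in Ampka1WT (0.72 ± 0.10). The adaptor gene Pycard fell from 14, 13 and 17.6 TPM in PBS to 5.08, 6.36 and 1.09 with MSUc, lowest in MSUc replicate 3. Casp4, the sensor of cytosolic lipopolysaccharide, rose from 7.79, 8.32 and 11.8 to 15.2, 17.5 and 23.3 TPM (0.93 ± 0.17).

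The 12 largest falls were falls in Ampka1WT as well, though not all of the same size. They were Kcnj10, Tifab, Ypel3, Adap2, Susd3, B3gnt8, Ptpn18, Lrrc25, P2ry6, Nfam1, Tlr8 and Trem1. Some fell further in libraries labelled Ampka1KO, both in TPM and when libraries were scaled by the median of gene ratios. The log2 differences in response of these, in TPM, were -2.29 for Adap2, -1.70 for Trem1, -1.49 for Kcnj10, -1.15 for P2ry6 and -0.77 for Lrrc25. Kcnj10, an inwardly rectifying potassium channel gene, went from 17.2, 13.7 and 14.6 TPM in PBS to 1.29, 1.42 and 1.29 with MSUc (-2.78 ± 0.12, adjusted p = 7.8e-08), and Adap2, which encodes an Arf GTPase-activating protein, from 32, 32.8 and 37 to 4.98, 4.13 and 5.06 (-2.61 ± 0.10). P2ry6, the receptor of extracellular UDP, went from 84.4, 84.3 and 67.2 to 13.5, 14.6 and 10.4 TPM (-2.53 ± 0.15), and Trem1, an amplifier of inflammatory signalling, from 63.6, 84.8 and 88.7 to 13.4, 18.4 and 9.84 (-2.45 ± 0.18). MSUc replicate 3 was the lowest of its group for 9 of the 12. A wide gap was that of the phosphatase gene Ptpn18, at 5.37, 7.4 and 0.498 TPM with MSUc against 19.8, 30.6 and 24.3 in PBS, whose log2 change of -2.57 ± 0.48 became -1.81 without that library. Ypel3 fell from 106–109 to 8.89–25 TPM, and in Ampka1WT from 250–293 to 19.6–40.6.

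Lysosomal genes divided by kind. Of all genes tested 28.8% fell and 29.7% rose. Of 48 genes of lysosomal hydrolases and membrane proteins 40 fell and 3 rose, with a median of -0.76. Ctsd, the aspartic protease cathepsin D, went from 13962, 11734 and 10752 TPM in PBS to 3806, 4263 and 3798 with MSUc (-1.61 ± 0.11, adjusted p = 8.2e-07), Ctsa from 458, 436 and 395 to 204, 221 and 198 (-1.04 ± 0.07) and the fucosidase gene Fuca1 from 99.2, 99.5 and 96.4 to 43.6, 48 and 43.7 (-1.11 ± 0.06). Of the 18 genes of the vacuolar proton pump (V-ATPase), which acidifies the lysosome, 7 fell, 2 rose and 9 did not pass, with a median of -0.14. Atp6v1h, a regulatory subunit of the cytosolic ring, rose from 72.8, 62.8 and 64.2 to 96.7, 106 and 127 TPM (0.71 ± 0.10), as did Atp6v1d (0.39 ± 0.11). Atp6v0b fell from 313, 290 and 285 to 183, 176 and 181 TPM (-0.71 ± 0.06), Atp6v1f from 178, 200 and 178 to 117, 110 and 90.1 (-0.81 ± 0.09) and Tcirg1, the a3 subunit, from 183, 166 and 150 to 111, 103 and 101 (-0.66 ± 0.08). PBS replicate 1 was above the mean of the other 2 PBS libraries for 16 of the 18, and without it 3 rose and 5 fell.

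The V-ATPase genes did respond in wild-type cells. In Ampka1WT 15 of 18 rose with a median of 0.79, and only Atp6v0a2 fell (19.7% of all genes rose there and 43.9% fell). The response in libraries labelled Ampka1KO was lower than in Ampka1WT for 15 of the 18 by the test of the difference itself, at a median difference of -0.96, and for 15 under median-of-ratios scaling at -1.27 (over all genes tested the difference was lower for 15.9% and 23.5%). Atp6v1a, a catalytic subunit, stood at 230, 178 and 193 TPM in PBS and 141, 178 and 165 with MSUc in libraries labelled Ampka1KO (-0.31 ± 0.10, adjusted p = 0.023), with replicate 2 alike in both, and went from 180, 186 and 167 to 335, 322 and 346 TPM in Ampka1WT (0.91 ± 0.10). Without PBS replicate 1 its change in libraries labelled Ampka1KO was -0.21 (adjusted p = 0.095), and without that library and MSUc replicate 3 it was -0.22 (adjusted p = 0.11). The response of the hydrolase and membrane protein genes was lower than in Ampka1WT as well, for 36 of 48 at a median difference of -0.79, and for 41 under median-of-ratios scaling at -1.08. The macrophage marker sum was lower in the same MSUc libraries, and its part in these lysosomal responses was not tested.

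**Figure D3:**
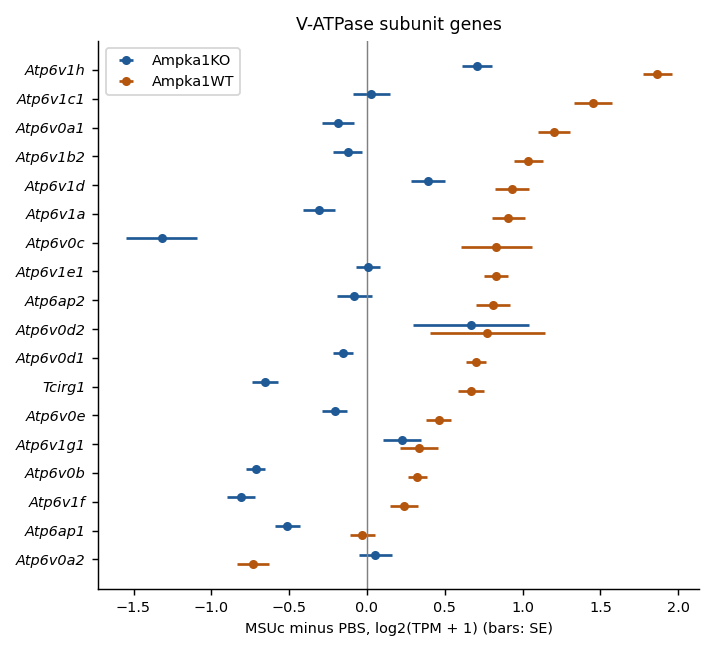
Change with MSUc of the 18 V-ATPase genes as a log2(TPM + 1) difference with its SE, in libraries labelled Ampka1KO (blue) and Ampka1WT (orange). Most orange points lie right of 0, with a median of 0.79, while the blue points lie around a median of -0.14.

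TFEB and TFE3 bind the E-box CACGTG in promoters of many lysosomal genes, and 3 promoters that hold it are shown because Ctsd and Atp6v0b fell in the libraries labelled Ampka1KO and Atp6v1a, whose fall was lost without PBS replicate 1, rose in Ampka1WT. The motif, which reads the same on both strands, was searched in the 250 bases before each start. It was present in 11 of 39 lysosomal hydrolase and membrane protein promoters in the table (28.2%), in 2 of 12 V-ATPase promoters (16.7%) and in 6.84% of all 17632, and in 0 of 8 promoters of the largest rises and 0 of 10 of the largest falls. Capitals mark the motif, and all 3 windows are read from the minus strand of GRCm38.p6, at chr7:142387893-142387952 for Ctsd, chr4:117887333-117887392 for Atp6v0b and chr16:44139358-44139417 for Atp6v1a.
Ctsd: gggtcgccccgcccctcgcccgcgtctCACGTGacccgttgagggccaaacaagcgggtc
Atp6v0b: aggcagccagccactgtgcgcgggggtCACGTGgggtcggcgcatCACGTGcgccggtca
Atp6v1a: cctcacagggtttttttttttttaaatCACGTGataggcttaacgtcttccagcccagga
In Ctsd the match shown begins 98 bases before the start, in Atp6v0b 36 and 18 bases, and in Atp6v1a 131 bases.

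Genes of the AMPK pathway and its lysosomal branch changed in both directions, as did all genes tested (29.7% rose and 28.8% fell). Of 13 tested genes of AMPK subunits and upstream kinases 2 rose and 5 fell, with a median of -0.12. Of the subunits, Prkab2 (beta2) rose from 6.94, 7.49 and 8.43 TPM in PBS to 10.6, 15.4 and 13.1 with MSUc (0.69 ± 0.16, adjusted p = 0.0032) and Prkag1 (gamma1) fell from 59.3, 68.9 and 66.7 to 43.4, 43.7 and 37.5 (-0.63 ± 0.09). Prkaa1, Prkab1 (beta1) and Prkag2 (gamma2) did not pass, with log2 changes of 0.14 ± 0.08, 0.06 ± 0.14 and -0.25 ± 0.11, and Prkag3 was near 0 everywhere. Camkk2, the calcium-dependent AMPK kinase, fell from 25.1–29.5 to 16–18.8 TPM, and so did Stradb (11.8–12.8 to 5.71–8.35 TPM), a partner of the kinase LKB1. Without PBS replicate 1 or MSUc replicate 3, 1 gene rose in place of 2. Of 20 genes of AMPK substrates 6 rose and 7 fell, near the shares of all genes. Tbc1d1, a regulator of glucose transporter traffic, rose from 11.7, 13 and 13.1 to 28.1, 25.1 and 27.5 TPM (1.04 ± 0.09). Larp1 rose (0.60 ± 0.07) and Atg9a, a membrane supplier of autophagosomes, fell (-0.77 ± 0.12).

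The transcription factors of the lysosome fell themselves. Tfeb went from 13.6, 17.1 and 15.3 TPM in PBS to 6.53, 5.35 and 4.79 with MSUc (-1.32 ± 0.12, adjusted p = 5e-06) and Tfe3 from 62.8, 71.3 and 67.6 to 45.3, 41.6 and 40.6 (-0.65 ± 0.07); Lamtor1, which anchors the Rag GTPases to the lysosome, fell from 144, 151 and 150 to 88.4, 64.3 and 63.3 (-1.05 ± 0.11). Over the 15 genes of these factors, folliculin and the Rag GTPases 6 rose and 6 fell, against 29.7% and 28.8% of all genes. Of 17 mTORC1 genes 2 rose and 6 fell; the falls included the restraints Sesn1 (14.1–14.6 to 3.5–4.88 TPM) and Deptor (5.09–5.62 to 1.12–2.62 TPM) and the lysosomal amino acid sensor gene Slc38a9 (6.06–7.17 to 2.19–2.66 TPM). Without MSUc replicate 3 or PBS replicate 2, 1 gene of this list rose in place of 2. Of 30 autophagy genes 4 rose and 13 fell, with a median of -0.17, among them Uvrag (-0.44 ± 0.06) and Calcoco1 (-1.07 ± 0.15).

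**Figure D4:**
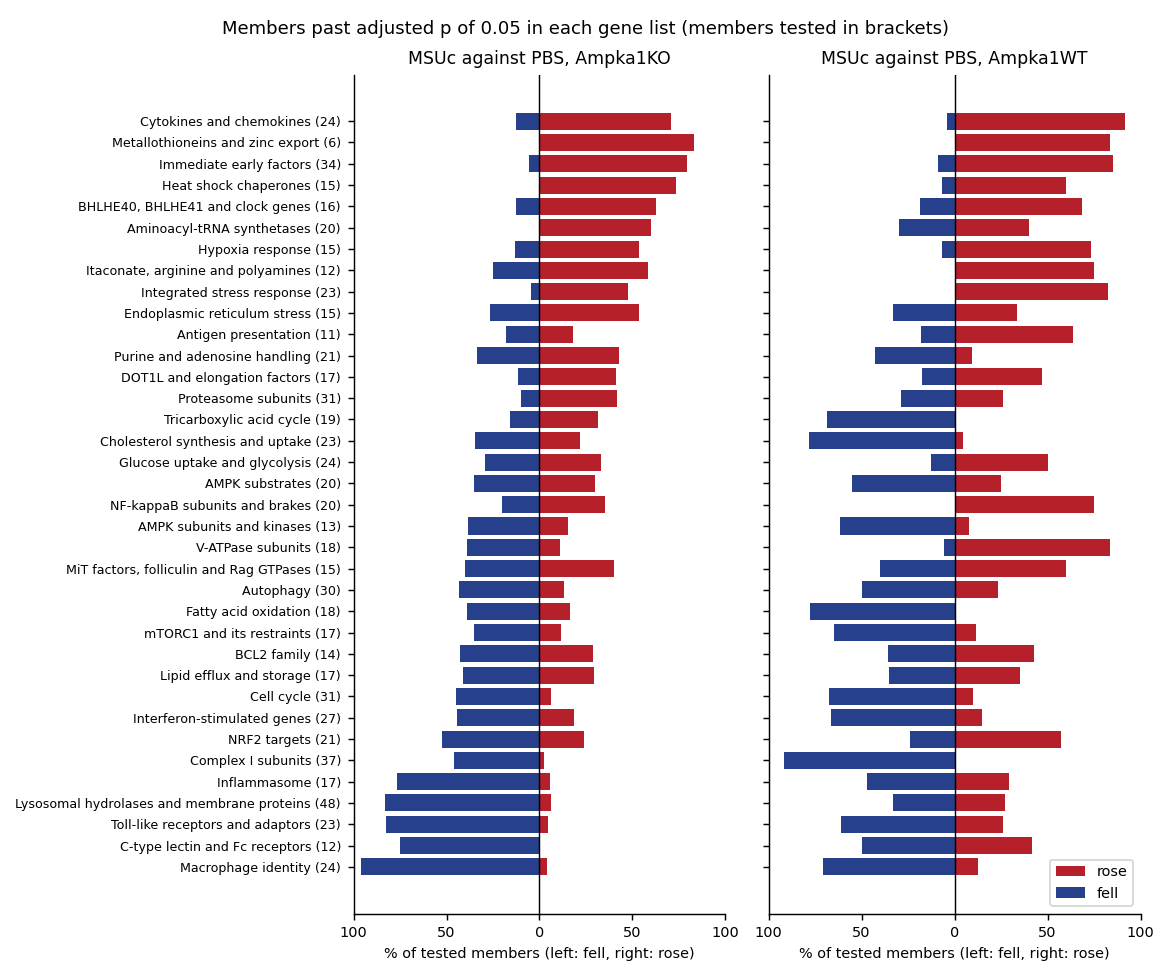
Share of the tested members of 36 gene lists that rose (red, right of 0) or fell (blue, left of 0) with MSUc in libraries labelled Ampka1KO and Ampka1WT, ordered by the median change in Ampka1KO. Cytokines lie at the top and macrophage identity genes, 23 of 24 of which fell, at the bottom; the V-ATPase bar points right in Ampka1WT (15 of 18) and mostly left in Ampka1KO (7 of 18).

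Protein-folding and stress genes rose more often than they fell, where 29.7% of all genes rose and 28.8% fell. In Ampka1WT 9 of 15 heat shock chaperone genes rose and 1 fell, and 19 of 23 integrated stress response genes rose. Aminoacyl-tRNA synthetase genes there rose in 8 of 20 and fell in 6 (19.7% and 43.9% of all genes). Of 15 heat shock chaperone genes 11 rose and 0 fell, with a median of 0.69; by limma 0 fell at an unadjusted p under 0.05 and 0 by voom on recovered reads, and 1 fell without MSUc replicate 1. Hsp90aa1, an inducible cytosolic HSP90, went from 64.3, 68.9 and 72.9 TPM in PBS to 150, 180 and 202 with MSUc (1.34 ± 0.10, adjusted p = 1.3e-06), Hspd1, the mitochondrial HSP60, from 62.6, 69.5 and 74.2 to 142, 163 and 170 (1.19 ± 0.11), and Hspa4 from 77.6–86.9 to 118–138 (0.63 ± 0.08). Of 23 genes of the integrated stress response 11 rose and 1 fell, with a median of 0.29. The falls went from 1 to 0 without PBS replicate 3, MSUc replicate 2 or MSUc replicate 3, to 2 without PBS replicate 1 and to 3 without MSUc replicate 1. Atf4, its central transcription factor, rose from 219, 200 and 207 to 360, 321 and 381 TPM (0.76 ± 0.09), where Ampka1WT went from 95.4–118 to 560–630 (2.45 ± 0.09). Ppp1r15a, which encodes the eIF2alpha phosphatase subunit GADD34, rose from 20.2–29.5 to 58.9–70.4 TPM and the arginine transporter gene Slc7a1 from 13.4–17.4 to 32.8–34.9. Another transporter gene of this response, Slc3a2, was at 335, 288 and 295 TPM in PBS and 286, 274 and 284 with MSUc (-0.12 ± 0.07, adjusted p = 0.18), against 140–152 and 790–862 TPM in Ampka1WT. Aminoacyl-tRNA synthetase genes rose in 12 of 20 and fell in 0 (limma, and 0 by unadjusted p and by voom; 1 without PBS replicate 1), with a median of 0.52, Rars from 68.5, 57.3 and 63.1 to 127, 150 and 173 TPM (1.23 ± 0.12), with Kars (0.72 ± 0.09) and Tars (0.70 ± 0.09).

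Endoplasmic reticulum stress genes were mixed, 8 of 15 rising and 4 falling, or 2 falling without MSUc replicate 1. Of all genes tested 29.7% rose and 28.8% fell. The chaperone genes Hspa5 (382–445 to 564–684 TPM) and Hsp90b1 (421–472 to 593–776 TPM) rose, and Sdf2l1 fell (77.6–93.9 to 34.8–36.5 TPM). Of 31 proteasome subunit genes 13 rose and 3 fell, among the rises Psmc6 (0.98 ± 0.15), Psmd12 (0.63 ± 0.11) and Psmd11 (0.50 ± 0.08); 5 fell without PBS replicate 1, and 8 rose without both doubted libraries. Of 6 genes of metallothioneins and zinc transport 5 rose and 0 fell (limma, and 0 by unadjusted p and by voom; 1 without MSUc replicate 1), with a median of 1.13. The zinc transporter genes Slc30a4, Slc39a14 and Slc39a10 went from 11.2–12.3 to 31.5–38.3 TPM (1.55 ± 0.10), from 23–32 to 65.2–78.5 (1.31 ± 0.15) and from 6.24–9.36 to 16.3–19.5 (1.23 ± 0.15). Hypoxia response genes rose in 8 of 15 and fell in 2; Vegfa, the endothelial growth factor, went from 115, 101 and 99 to 255, 234 and 225 TPM (1.18 ± 0.09), Adm from 5.49, 7.27 and 7.25 to 27, 19.5 and 22.3 (1.64 ± 0.17), and Mxi1, a MYC antagonist, fell (-1.24 ± 0.09). Without PBS replicate 1 or without MSUc replicate 1, 1 gene of this list fell, and without MSUc replicate 2, 4 did.

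Targets of the antioxidant factor NRF2 fell more often than they rose. Of 21, 11 fell and 5 rose, against 28.8% and 29.7% of all genes, with a median of -0.36. Without PBS replicate 2, PBS replicate 3 or MSUc replicate 3, 3 rose. Fth1, the ferritin heavy chain, fell from 26903, 22285 and 21284 TPM in PBS to 7385, 8223 and 7200 with MSUc (-1.62 ± 0.12, adjusted p = 1.3e-06), Blvrb, biliverdin reductase B, from 191, 190 and 199 to 66.5, 59.7 and 48.2 (-1.73 ± 0.11) and Taldo1 of the pentose phosphate pathway from 521, 489 and 513 to 211, 240 and 214 (-1.19 ± 0.10). In Ampka1WT 12 of the 21 rose and 5 fell (19.7% and 43.9% of all genes). The difference between genotypes was lower in libraries labelled Ampka1KO for 16, and for 17 under median-of-ratios scaling (15.9% and 23.5% of all genes).

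Metabolic genes did not move as a block. Glucose uptake and glycolysis genes rose in 8 of 24 and fell in 7, near the shares of all genes (29.7% and 28.8%); the lactate transporter gene Slc16a1 rose from 13.4, 10.2 and 11.7 to 32.6, 35.9 and 36.2 TPM (1.50 ± 0.11), while Hk3 (-1.08 ± 0.09) and Aldoc (-1.03 ± 0.12) fell. Without PBS replicate 3 or MSUc replicate 1, 5 of them rose. In the tricarboxylic acid cycle 6 of 19 rose, again near the share of all genes, among them Idh3a (40.7–43.8 to 64.3–86.1 TPM) and Dlst (71.7–80 to 104–107 TPM), and 3 fell, Idh2 among them (46.8–52.9 to 29.8–33.3 TPM). Of 37 genes of respiratory complex I 17 fell and 1 rose, with a median of -0.38, and 0 rose without PBS replicate 1, PBS replicate 2, MSUc replicate 2 or MSUc replicate 3; Ndufs7 (-1.06 ± 0.16), Ndufa13 (-0.70 ± 0.08) and Ndufb11 (-0.61 ± 0.10), each of which overlaps another gene, had the smallest p-values. Of 18 genes of fatty acid oxidation 7 fell and 3 rose, and 1 rose without PBS replicate 2 or MSUc replicate 2. Cpt1a, the gate of mitochondrial fatty acid entry, fell from 54.9, 54.3 and 53.3 to 25.8, 29.4 and 21.9 TPM (-1.06 ± 0.09), with Acads (-0.91 ± 0.11) and Acadm (-0.92 ± 0.10).

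Cholesterol and lipid genes also divided, as did all genes tested (29.7% rose and 28.8% fell). Of 23 genes of cholesterol synthesis and uptake 5 rose and 8 fell, and 3 rose without PBS replicate 1. Cyp51 rose from 27.6, 25.1 and 27.2 to 42.3, 47.1 and 44.2 TPM (0.72 ± 0.08) while Fdft1 (-0.81 ± 0.07) and Mvd (-1.28 ± 0.15), enzymes of the same pathway, fell. Of 17 genes of lipid efflux and storage 5 rose and 7 fell; Abca1, the cholesterol exporter, went from 94.9, 91.4 and 110 to 20.3, 25.8 and 18.1 TPM (-2.17 ± 0.13), Nr1h3, which encodes the sterol receptor LXRalpha, fell (-1.53 ± 0.19) and Pparg rose from 5.78, 5.63 and 4.96 to 10.4, 10.4 and 12.8 (0.92 ± 0.13). Purine and adenosine genes rose in 9 of 21 and fell in 7. Xdh, the oxidase that makes urate, fell from 86.8, 78.2 and 81.6 to 23.1, 27.5 and 19.9 TPM (-1.77 ± 0.10) and so did the urate transporter gene Slc2a9 (4.13–5.42 to 0.864–1.64 TPM), while Atic of purine synthesis rose from 40.6, 40.5 and 42.6 to 69.5, 76.1 and 75.6 (0.82 ± 0.07). In the list of itaconate, arginine and polyamine metabolism 7 of 12 rose and 3 fell, and Odc1, Srm and Sat1 of polyamine turnover rose by 0.83 ± 0.10, 0.86 ± 0.11 and 0.84 ± 0.11.

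Cell cycle genes fell in 14 of 31 and rose in 2, with a median of -0.32, and 1 rose when any of 4 libraries was left out (PBS replicates 1 and 3, MSUc replicates 2 and 3). The mitotic kinase gene Aurkb went from 25.3, 30.9 and 30.2 to 11.8, 12.6 and 15.1 TPM (-1.08 ± 0.13) and Mki67 from 51.6, 64.5 and 72.8 to 37.7, 41.5 and 40.4 (-0.64 ± 0.12), while Rrm1, a ribonucleotide reductase subunit, rose (0.57 ± 0.14). In the BCL2 family 4 of 14 rose, near the share of all genes (29.7%), and 6 fell (28.8% of all genes). The death-promoting Bcl2l11 fell from 30.9, 25.9 and 26.5 to 12.6, 12.6 and 10.3 TPM (-1.17 ± 0.10), and Bmf fell (-1.27 ± 0.20). Bcl2a1b, one of several near-identical copies whose reads may have been divided, fell as well (-1.27 ± 0.14). Interferon-stimulated genes fell in 12 of 27 and rose in 5, with Bst2 (130–161 to 32.7–52.4 TPM), Stat2 (15.9–18.1 to 4.88–6.99 TPM) and Irf9 (23.8–25.9 to 9.62–11.8 TPM) falling. Of 11 antigen presentation genes 2 rose, H2-Aa among them (10.6–13.7 to 16.8–36.3 TPM), and 2 fell, H2-DMa (14.5–16.6 to 4.65–6.26 TPM) and H2-DMb1 (18.3–22.4 to 7.7–12.9 TPM); 1 rose without PBS replicate 2.

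Genes of transcriptional regulators that other experiments of the series address rose in part. Of 16 genes around the repressors BHLHE40 and BHLHE41 and the circadian clock 10 rose and 2 fell, with a median of 0.61. Bhlhe40 was at 43.7, 26.9 and 26.3 TPM in PBS, highest in replicate 1, and 97.2, 103 and 99.6 with MSUc (1.64 ± 0.16), against 138–173 TPM in wild-type MSUc libraries; Arntl (1.30 ± 0.15) and Clock (0.64 ± 0.09) rose too. Of 17 genes of the histone methyltransferase DOT1L and of elongation factors 7 rose and 2 fell, against 29.7% and 28.8% of all genes. Dot1l went from 21.1, 12.5 and 10.5 to 36.5, 34.5 and 31.9 TPM (1.22 ± 0.18, adjusted p = 0.00017), while in Ampka1WT it went from 6.74, 6.85 and 6.77 to 136, 116 and 126 (4.03 ± 0.18). Ell2, an elongation factor, rose from 31.1–41.9 to 57.2–74.4 TPM, and Aff4, a scaffold of the elongation complex, from 29.9–32.7 to 48–56.8. Without MSUc replicate 1, 4 genes of this list fell in place of 2.

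The test of the difference itself compared the MSUc response in libraries labelled Ampka1KO with that in Ampka1WT. A lower response is a smaller rise, a larger fall or a fall in place of a rise, and a higher response is the reverse. By limma the response was higher for 4450 genes (34.7%) and lower for 2046 (15.9%), together 50.6%. That split depended on scaling, because in Ampka1WT the median gene changed by -0.27 in TPM, where 2534 genes rose and 5635 fell (63.7% in all), and by 0.01 after median-of-ratios scaling, where 3916 rose (30.7%) and 3620 fell (28.3%). In libraries labelled Ampka1KO that scaling gave 4086 rises (32%) and 3448 falls (27%). Under that scaling the difference was higher for 2558 genes (20%) and lower for 3005 (23.5%), and the median difference over all genes went from 0.30 to 0.05. A gene is therefore described as differing only where both scalings call it with 1 sign, which left 2558 higher (20.1%) and 2043 lower (16%). The 2 responses had much in common: 1455 genes rose in both, 38.2% of the rises in libraries labelled Ampka1KO and 57.4% of those in Ampka1WT, and 2658 fell in both, 71.8% and 47.2% of the falls. Under median-of-ratios scaling 2227 rose in both (54.5% and 56.9%) and 1835 fell in both (53.2% and 50.7%).

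Among the lower responses with the smallest p-values were those of Nlrp3, Cd14, Jun, Slc3a2, Sirpa, Fos and Slc7a8. Jun, Fos, Nlrp3 and Slc3a2 are described above with their values; each rose in Ampka1WT and fell or did not pass in libraries labelled Ampka1KO. Cd14, which fell in the latter, rose from 1484–1609 to 4575–5096 TPM in Ampka1WT. For Jun the log2 difference in response was -3.47 ± 0.13 (adjusted p = 4.2e-08) and for Nlrp3 -3.21 ± 0.11 (adjusted p = 4.1e-08). Sirpa, the receptor of the CD47 signal against engulfment, fell from 313, 288 and 289 to 117, 121 and 120 TPM in libraries labelled Ampka1KO and rose from 175, 186 and 186 to 354, 360 and 405 in Ampka1WT. Slc7a8, an amino acid transporter that pairs with Slc3a2, fell from 175–191 to 46.5–50.8 TPM in the former and rose from 73.9–84.3 to 121–139 in the latter. Of the whole lists, the response was lower for 19 of 24 cytokine genes and 28 of 34 immediate early genes, and for 20 and 30 under median-of-ratios scaling (15.9% and 23.5% of all genes).

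The higher responses with the smallest p-values were those of Ccng1, Ptgfrn, Ddx58, Calm3, Rbms2, Trp53inp1, Cdc42ep3 and Psrc1. Ccng1, cyclin G1, a target of p53, rose from 162, 176 and 189 to 358, 416 and 422 TPM in libraries labelled Ampka1KO and fell from 93.4, 94.1 and 94 to 49.9, 50.6 and 48 in Ampka1WT, a difference of 2.09 ± 0.11 (adjusted p = 2.7e-07). Another p53 target, Trp53inp1, stood at 22.9, 23.3 and 27.2 TPM in PBS and 19.5, 27.1 and 24.2 with MSUc in the former, with overlap, and fell from 41.9, 45.4 and 42.5 to 9.05, 8.51 and 9.02 in the latter. Ddx58, which encodes the RNA sensor RIG-I, rose from 9.34–10.2 to 12.6–13.3 TPM and fell from 10.4–11.4 to 3.53–3.77, and Psrc1, a spindle protein gene, rose from 17.5–22.3 to 31.3–44.9 and fell from 14–15.7 to 2.48–3.69. Cdc42ep3, an effector of the GTPase CDC42, rose from 40.2–44.1 to 95.3–118 TPM and was 11.1–11.3 and 9.06–9.7 in wild-type libraries. Ptgfrn, Calm3 and Rbms2 fell in Ampka1WT by -1.89, -1.35 and -1.18, and changed by -0.16, 0.07 and 0.29 in libraries labelled Ampka1KO, where only the last passed. For metabolic lists the higher responses leaned on scaling: in the tricarboxylic acid cycle 14 of 19 were higher and 0 lower in TPM (0 also at an unadjusted p under 0.05 by limma), and 9 and 1 under median-of-ratios scaling. Over all genes 34.7% were higher in TPM and 20% under that scaling.

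**Figure D5:**
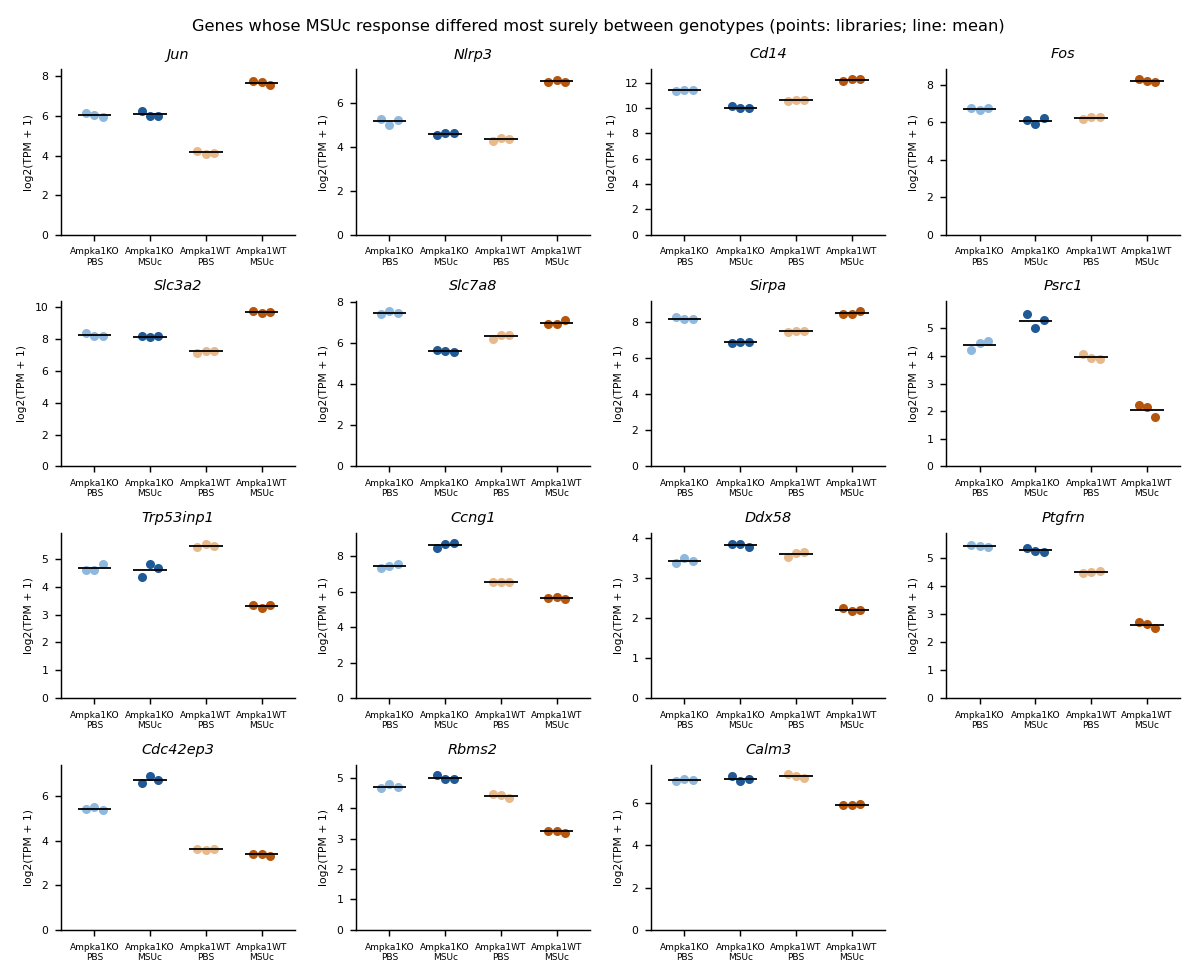
Levels as log2(TPM + 1) in each library (points, with group means as lines) of 7 of the genes with the surest lower and the 8 with the surest higher MSUc response in libraries labelled Ampka1KO (blue) than in Ampka1WT (orange). In the first 7 panels the orange points are higher with MSUc than in PBS and the blue points are lower or overlap; in the other 8 panels the orange points are lower with MSUc.

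Regions that gained or lost chromatin signal with MSUc in wild-type macrophages of the series were deposited as lists with the nearest gene of each, and those genes were set against this response. The macrophages of those lists were kept in a higher concentration of M-CSF than the 12 libraries here. Among genes nearest to regions that gained the enhancer mark H3K27ac, 345 of 897 tested rose in libraries labelled Ampka1KO (38.5%, against 29.7% of all genes) and 239 fell (26.6%, against 28.8%), while in Ampka1WT 510 rose (56.9%, against 19.7%) and 156 fell (17.4%, against 43.9%). Among genes nearest to regions that lost it, 148 of 910 rose (16.3%) and 460 fell (50.5%), and in Ampka1WT 106 rose (11.6%) and 611 fell (67.1%). Nearest genes of gained TFEB peaks rose in 787 of 2238 (35.2%) and fell in 645 (28.8%), those of gained TFE3 peaks rose in 601 of 2058 (29.2%) and fell in 736 (35.8%), and those of gained DOT1L peaks rose in 666 of 1793 (37.1%) and fell in 529 (29.5%). For genes nearest to reduced DOT1L peaks 560 of 1815 rose (30.9%) and 647 fell (35.6%). In Ampka1WT 41.9% of the genes of gained TFEB peaks rose and 27.8% fell, and 38.1% and 34% of those of gained TFE3 peaks. For gained DOT1L peaks these shares in Ampka1WT were 47.1% and 24.7%, and for reduced DOT1L peaks 27.7% and 41.1%.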

How the data were processed

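RNA-seq libraries (poly-A RNA, strand-marking dUTP protocol, per the labels' protocols) came from 12 macrophage samples, 3 in each of 4 groups. STAR, HOMER and mm10 are named in the submitters' processing notes, without versions. The deposited values had no unit in the file headers. They were read as TPM made by the authors from how they scale with transcript length, and summed to 539067 to 569594 per library over the 1 RefSeq transcript kept per gene. Distances and nearest genes of regions are other values that the authors deposited. Whole reads were recovered from the steps of each library's values (at least 99.988% of values lay within 0.15 read of a whole number), giving 5764103 to 18399527 reads per library, the depth that limits low genes. For every gene, TPM is a share of the library, so the rise of abundant genes lowers the others.

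Genes reaching 1 TPM in at least 3 of the 12 libraries (12834) were tested on log2(TPM + 1), a scale that understates the change of low genes, with limma 3.58.1 in R 4.3.3. The fit had 4 group means over all 12 libraries and a mean-dependent prior (trend). P-values were two-sided and Benjamini-Hochberg adjusted over all genes tested, with a threshold of 0.05. Data were simulated for 12478 genes from the PBS means of libraries labelled Ampka1KO, with the same dispersion for every gene. Only a small part of these genes was given a change. Of that part, changes of 2 on the log2 scale were recovered in 98% and of 1 in 88% when they rose, and in 97.9% and 87.2% when they fell. In the real comparison 58.5% of genes were called, so recovery under changes that wide was not measured. Named genes were the AMPK subunits; the 12 largest rises and falls with no overlap between groups and a mean of at least 5 TPM; in each list the 3 genes whose p was smallest; the 8 surest differences between genotypes in each direction; and further members where a count is explained. 1 gene that this rule names is not reported here, though it stays in the fits and list counts. Axl, Fosb, Fosl1, Fosl2, Junb and Jund were named beyond this rule, after their values were seen. The lists, which hold 36 pathways and 7 cell types, and the members were chosen with earlier results of these data known. Alternatives were another scaling, pseudocount, filter, prior, voom on the recovered reads, a replicate block, the knockout-labelled libraries alone and leaving out libraries. Time of exposure and the deleted part of the gene are not given in the sources used here.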

Additional observations from a re-analysis of the deposited data

Results flagged for a closer look

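The MSUc response differed between libraries labelled Ampka1KO and Ampka1WT, by the test of the difference itself, for 6496 genes in TPM. Of the 161 genes named by rule 95 differed with the same sign under both scalings, 70 lower and 25 higher. Each is given with the log2 difference in response that drew attention to it. Over all genes 20.1% were higher and 16% lower under both scalings. Some of the 161 were named by this same test and the others for their change or their list. The split of the named genes therefore follows from how they were picked and is not a result. A lower response can be a smaller rise or a larger fall, and a higher response a larger rise or a smaller fall. The response was lower for genes of signalling and early transcription Jun (-3.47), Fos (-2.60), Maff (-2.63), Mafk (-1.56), Myc (-1.13), Nr4a3 (-1.81), Gem (-2.32), Atf4 (-1.69), Ppp1r15a (-1.63), Nfkb1 (-0.61) and Tnfaip3 (-3.55). It was lower for the inflammatory mediators and receptors Cxcl1 (-2.40), Csf1 (-1.33), Ptgs2 (-2.17), Nlrp3 (-3.21), Nlrc4 (-1.40), Naip2 (-1.03), Ninj1 (-1.99), Cd14 (-3.00), Syk (-1.74), Fcer1g (-1.28), Fcgr2b (-0.89), Unc93b1 (-0.92), Csf3r (-0.63) and Xcr1 (-2.56). Myeloid genes with a lower response were Sirpa (-2.33), Trem1 (-1.70), Trem2 (-1.65), Adap2 (-2.29), Kcnj10 (-1.49), Lrrc25 (-0.77) and P2ry6 (-1.15). Genes of the lysosome and its regulators with a lower response were Atp6v0b (-1.04), Atp6v1f (-1.05), Tcirg1 (-1.32), Ctsa (-1.15), Ctsd (-1.48), Tfeb (-1.01), Tfe3 (-0.29) and Uvrag (-0.39). Among transporter, metabolic and antioxidant genes it was lower for Slc3a2 (-2.59), Slc7a8 (-2.53), Slc7a1 (-1.36), Slc16a1 (-1.06), Slc39a10 (-0.92), Slc39a14 (-1.22), Abca1 (-1.77), Nr1h3 (-0.82), Pparg (-2.87), Fdft1 (-0.78), Hk3 (-1.95), Odc1 (-1.63), Xdh (-1.28), Fth1 (-1.30), Blvrb (-1.50) and Taldo1 (-0.80). It was also lower for genes of chromatin, the clock, survival and stress Dot1l (-2.80), Ell2 (-2.30), Bhlhe40 (-1.64), Bcl2a1b (-3.21), Bcl2l11 (-0.55), Hsp90aa1 (-0.96), Rars (-0.79), Psmd11 (-0.56), Sdf2l1 (-0.77), Vegfa (-0.77) and Mxi1 (-1.06). The interferon and antigen presentation genes with a lower response were Bst2 (-1.44), Irf9 (-0.72) and H2-DMa (-0.56). The response was higher for the surest differences Psrc1 (2.78), Trp53inp1 (2.11), Ccng1 (2.09), Ddx58 (1.77), Ptgfrn (1.74), Cdc42ep3 (1.53), Rbms2 (1.47) and Calm3 (1.42). It was higher for genes near silence in wild-type PBS libraries Akr1c18 (2.78), Cxcl5 (1.93), Ereg (1.85), Mcpt8 (1.99) and Dcn (1.74). Genes of metabolism, the cell cycle and AMPK with a higher response were Acadm (0.75), Atic (0.74), Cyp51 (1.12), Idh3a (1.07), Kars (1.03), Aurkb (0.95), Rrm1 (1.47), Bmf (2.07), Deptor (0.87), Sesn1 (0.84), Prkag1 (0.77) and Prkag2 (0.89). Of these, Acadm, Aurkb, Bmf, Deptor, Sesn1 and Prkag1 fell with MSUc in libraries labelled Ampka1KO, by less than in Ampka1WT. Fitted differences of genes near 0 in wild-type PBS libraries depend on the pseudocount, and Cxcl5 and Ereg turned negative by voom on recovered reads. No cause of these differences was tested.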

How the results depend on the processing

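Across the 15 alternatives that give them, the counts of genes that rose and fell in libraries labelled Ampka1KO stayed within 1.5 times of 3806 and 3702. They were 3436 and 3426 with the replicate block and 4086 and 3448 under median-of-ratios scaling. Leaving out 1 library at a time gave 3379 to 3765 rises and 3249 to 3824 falls, and leaving out both libraries that stood apart, an alternative chosen after seeing the data, gave 3214 and 3393. Of the responses of single named genes there, none reversed, 2358 comparisons kept the direction and call, 21 lost and 5 gained the call, among them Camp, S100a8, Gata2 and Zbtb46. In Ampka1WT the rises were 3916 under median-of-ratios scaling and 4113 by voom on recovered reads, and the falls 3620 under the former. For the difference between responses 2558 and 2073 genes were higher under those settings and 3073 lower by voom; with the block 3791 were higher and 1795 lower. The cause was not tested.

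Prkaa1 with MSUc was -0.13 between genotypes under both median-of-ratios scaling and voom. The difference between responses also reversed by voom for Adm (-2.11), Clock (-0.31), Cxcl5 (-1.42), Ereg (-1.38), Il11 (-2.56), Tnfsf11 (-2.79), Dlst (-0.0273) and Hspa4 (-0.0152), for the last pair under median-of-ratios scaling (-0.0201 and -0.0124), and at a pseudocount of 0.1 for Il11 (-0.84) and Tnfsf11 (-0.79). Of these, Adm, Cxcl5, Ereg, Il11 and Tnfsf11 were at or near 0 in wild-type PBS libraries. Same-numbered PBS and MSUc libraries did not deviate together (r of -0.09, -0.04 and 0.01 in Ampka1KO), so the numbers were not read as pairs.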

Other observations

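Without crystals, too, the libraries labelled Ampka1KO differed from the wild type. In PBS 4342 genes were higher there (33.8%) and 1775 lower (13.8%), by limma adjusted p, and 3057 (23.9%) and 3036 (23.8%) under median-of-ratios scaling. Several genes that rose with MSUc stood at a higher level in these PBS libraries than in those of the wild type. Ptgs2 was at 126, 106 and 116 TPM in the PBS libraries labelled Ampka1KO and at 2.95, 1.51 and 2.46 in the wild type (5.17 ± 0.17, adjusted p = 3.2e-09). Csf1 was at 375, 451 and 432 against 17.7, 20.9 and 24.3 TPM (4.27 ± 0.11), Lif at 12.7, 13.4 and 12.5 against 0.467, 0.955 and 1.03 (2.95 ± 0.27), and Serpinb2 at 29.7, 32.1 and 38.4 against 3.65, 4.45 and 4.82 (2.70 ± 0.30). Myc, a growth-promoting transcription factor gene, was at 18, 22 and 21.6 against 1.84, 1.95 and 2.34 TPM (2.82 ± 0.13). The stromal gene Acta2 was higher in the same libraries, at 870, 1141 and 1009 against 34.2, 38.4 and 63.6 TPM (4.48 ± 0.28), and its part in these differences was not tested.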
